A study of Mus musculus with 12 samples.

Results

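Zinc alone was compared directly with dexamethasone alone in the mouse ileum. The comparison uses 6 of the 12 RNA-seq libraries of the study: 3 C57BL/6J mice that drank 25 mM ZnSO4 for 7 days and were then injected with PBS (ZnSO4 + PBS, here the ZnSO4 mice), and 3 that drank normal water for 7 days and were then injected with 200 µg of the synthetic glucocorticoid dexamethasone in PBS (water + Dex, here the Dex mice). The other 6 libraries, from mice given water + PBS or ZnSO4 + Dex, serve as background: they show where a gene stood with neither agent and with both, and they share the estimate of the spread. All 12 samples came from female mice, 8 to 14 weeks old, of 1 wild-type strain, injected once and sampled 2 h later, so all had an injection and the 2 agents differ in length of exposure, 7 days against 2 h. The ileum was taken whole after washing, hence every value is an average over epithelium, immune cells, muscle and vessels. All 15938 genes with enough counts were tested, and the question asked of each was whether it separated the 2 treatments.

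Both agents act through a factor that binds DNA. Free zinc in the cell activates the transcription factor MTF1, which binds metal response elements in front of the metallothionein genes and of some zinc exporters. Metallothioneins are small cysteine-rich proteins that hold zinc, Slc30a (ZnT) proteins move zinc out of the cytosol, and Slc39a (ZIP) proteins move it in. Dexamethasone binds the glucocorticoid receptor GR, which then moves to the nucleus, binds glucocorticoid response elements and activates genes such as Fkbp5, Per1 and Tsc22d3, while it dampens many inflammatory genes. The ileal epithelium absorbs zinc, bile acids and fat, and together with Paneth and goblet cells it keeps bacteria at a distance with antimicrobial proteins and mucus.

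Of the 15938 genes tested, 490 (3.07%) were higher with ZnSO4 and 676 (4.24%) were higher with Dex, by edgeR's quasi-likelihood test at a Benjamini-Hochberg adjusted p below 0.05 and a log2 fold change (LFC) beyond 0.8 in size. Those cut-offs are the ones the study used, an LFC above 0 here always means a higher level in the ZnSO4 mice, and its error is given as the standard error (SE). Dex-side differences were the larger ones: 180 genes were higher with Dex by more than 2 on the LFC scale and 55 were higher with ZnSO4 by as much, and the median LFC of the called genes was -1.36 and 1.19. For 9877 genes (62%) the 95% interval of the LFC lay within -0.8 to 0.8. The groups did not overlap for 488 of the 490 and 666 of the 676 called genes, while 38.3% of all tested genes did not overlap either. Total counts were 11534841 to 11827487 in the ZnSO4 libraries and 10760132 to 11435114 in the Dex libraries, and along the first principal component of the 6 libraries (47.5% of the variance) the ZnSO4 mice lay at -40.7 to -34.7 and the Dex mice at 32.2 to 44.1. The 2 libraries in any pair of one group were 0.471 to 0.624 apart (root mean square difference in log2 CPM, with CPM a gene's counts scaled to the library total) and those of different groups 0.655 to 0.809. The labels call the mice replicates and do not say whether they shared a cage or a day.

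**Figure D1:**
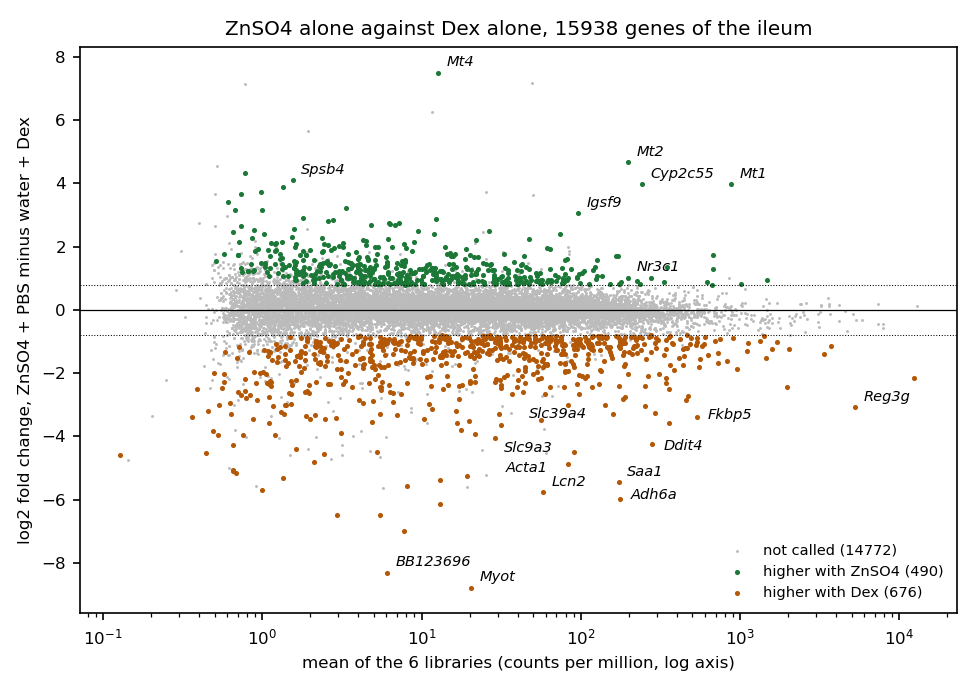
LFC between the ZnSO4 and the Dex mice (vertical, log2 scale) against the mean level over the 6 libraries (horizontal, CPM on a log axis), 1 point a gene. The 490 genes higher with ZnSO4 and the 676 higher with Dex are coloured, and of these Mt4 is at the top and Myot at the bottom of the plot.

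The metallothionein genes were among those furthest to the ZnSO4 side, and Mt4 and Mt2 had the highest LFC of all genes called there. Normalised counts of Mt1 were 21988, 11971 and 22541 in the 3 ZnSO4 mice and 1093, 1143 and 1376 in the 3 Dex mice. Those groups did not overlap (LFC 3.97 ± 0.27, adjusted p = 4.06e-06). Mt2, its neighbour, had 4941, 2669.6 and 5357 in the ZnSO4 mice and 161, 150.1 and 199.9 in the Dex mice (LFC 4.67 ± 0.36, adjusted p = 8.17e-06), again with no overlap. Mt4, which is known from stratified epithelia, was near the floor in the Dex mice (2.23, 2.16 and 0) and stood at 304, 77.8 and 477 in the ZnSO4 mice. Summed over the 3 libraries of each group Mt4 had 922 counts against 4, a ratio of normalised counts of 196 (95% counting interval 76.3 to 721), an interval that covers counting error only. All 3 tested members of the 4 genes listed were thus higher with ZnSO4, against 3.07% of all genes tested, and their median LFC was 4.66 against 0.000867 over all genes. Mt3 had too few counts for the test. Against the water + PBS mice (850.2, 700.3 and 490.3) the LFC of Mt1 was 4.79 with ZnSO4 and 0.82 with Dex (adjusted p = 9.07e-06 and 0.0583). The Dex mice were each above each water + PBS mouse, a difference that did not pass the edgeR test, and far below the ZnSO4 mice. In the DESeq2 values printed by the paper, the rise of Mt1 with Dex was past the paper's cut-offs.

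All 3 genes lie in 1 cluster on chromosome 8, at chr8:94137197-94139031 (Mt4), chr8:94172664-94173568 (Mt2) and chr8:94179082-94180327 (Mt1) of GRCm38, on the plus strand. Gm45774, a gene on the opposite strand that overlaps 73.5% of the exonic bases of Mt2, was also higher with ZnSO4 (37.7, 30.2 and 40.8 against 5.57, 5.40 and 3.24, LFC 2.90 ± 0.33, adjusted p = 0.000134), and without a stated strand setting of the counting its reads cannot be told apart from those of Mt2. The sequences around the start sites are shown because zinc acts on these genes through metal response elements, and Slc30a2 is added as the zinc exporter that was higher with ZnSO4. Each stretch holds 250 bases before and 30 bases from the start site (RefSeq, GRCm38.p6, plus strand), with matches on either strand to the core TGCACNC or TGCGCNC in capitals. Mt1 chr8:94178839-94179118, Mt2 chr8:94172368-94172647, Mt4 chr8:94136954-94137233 and Slc30a2 chr4:134343216-134343495 read as follows. The start of Slc30a2 used here is that of 1 of its 4 GENCODE transcripts and lies 285 bases after the first of them, so that its window is within the annotated gene.
Mt1: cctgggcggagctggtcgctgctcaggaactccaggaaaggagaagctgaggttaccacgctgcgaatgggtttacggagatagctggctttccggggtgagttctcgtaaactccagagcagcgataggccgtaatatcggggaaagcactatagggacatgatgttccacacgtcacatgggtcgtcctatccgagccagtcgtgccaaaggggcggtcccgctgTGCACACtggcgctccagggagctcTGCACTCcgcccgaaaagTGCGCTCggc
Mt2: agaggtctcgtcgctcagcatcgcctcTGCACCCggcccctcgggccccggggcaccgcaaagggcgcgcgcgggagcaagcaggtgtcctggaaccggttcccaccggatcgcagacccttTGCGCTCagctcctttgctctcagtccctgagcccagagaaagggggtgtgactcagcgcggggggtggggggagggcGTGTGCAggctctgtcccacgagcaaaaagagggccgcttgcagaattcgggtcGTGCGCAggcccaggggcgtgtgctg
Mt4: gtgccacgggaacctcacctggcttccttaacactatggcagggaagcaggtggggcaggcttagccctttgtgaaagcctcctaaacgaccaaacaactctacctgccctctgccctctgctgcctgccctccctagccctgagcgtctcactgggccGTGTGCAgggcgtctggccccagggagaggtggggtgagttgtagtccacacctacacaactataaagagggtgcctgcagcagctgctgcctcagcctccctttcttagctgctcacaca
Slc30a2: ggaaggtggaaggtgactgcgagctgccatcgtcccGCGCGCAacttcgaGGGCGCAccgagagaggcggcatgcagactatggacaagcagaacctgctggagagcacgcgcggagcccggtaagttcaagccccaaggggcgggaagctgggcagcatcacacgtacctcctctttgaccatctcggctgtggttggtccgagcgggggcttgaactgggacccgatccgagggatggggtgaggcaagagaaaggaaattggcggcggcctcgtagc
Mt1 holds 3 matches, Mt2 holds 4, Mt4 holds 1 and Slc30a2 holds 2. In Mt1 they begin 23 bases before the start site used here and at bases 3 and 21 from it. That start lies 7 bases after the first start of the 3 GENCODE transcripts of Mt1. The start used for Mt2 lies 46 bases before the first of its annotated starts. For each of these genes 1 window was searched, so the positions hold for the start used. The core is short, and 34.6% of the 14586 windows of the same genes tested (300 bases, 250 before and 50 from the start) hold at least 1. The share was 36.1% of 441 windows of genes higher with ZnSO4 and 30.1% of 592 windows of genes higher with Dex. A match is a string of letters and not a bound site.

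Zinc transporters split by gene, not by family. Of 8 tested Slc30a exporters 1 was higher with each agent (median LFC -0.01), and of 12 tested Slc39a importers 2 were higher with Dex (median LFC -0.27). Over all genes 3.07% were higher with ZnSO4 and 4.24% with Dex. Slc39a4, the intestinal zinc importer ZIP4 that is mutated in acrodermatitis enteropathica, had 307, 387 and 307 normalised counts in the ZnSO4 mice and 3052, 3218 and 3514 in the Dex mice (LFC -3.29 ± 0.15, adjusted p = 2.56e-07). Every ZnSO4 mouse was far below every Dex mouse. The water + PBS mice, with 2447, 2571 and 2699, lay beside the Dex mice, and the LFC against them was -2.95 with ZnSO4 and 0.34 with Dex (adjusted p = 4.57e-06 and 0.151). Slc30a2 (ZnT2), a vesicular exporter, was higher with ZnSO4 at 2235, 1543 and 1964 against 749, 851 and 787 (LFC 1.27 ± 0.18, adjusted p = 0.000618). Slc30a10, which exports manganese, went the other way with 399, 339.5 and 233 against 934, 1081 and 1163 (LFC -1.71 ± 0.38, adjusted p = 0.00883). Slc30a1, the plasma membrane exporter ZnT1 and a textbook MTF1 target, had 2091 ± 173 against 1502 ± 159.9 (SD, n = 3 each) and an LFC of 0.48 ± 0.19, below the cut-off of 0.8 and not past the test (adjusted p = 0.109). Its LFC against water was -0.09 with ZnSO4 and -0.57 with Dex (adjusted p = 0.829 and 0.0869). Slc39a8 was called higher with Dex (LFC -0.83, adjusted p = 0.0138), but its LFC sits at the cut-off and the call was lost without Dex replicate 3 or ZnSO4 replicate 1 or 2 (LFC -0.68, -0.77 and -0.77). Of 16 tested genes of iron and copper handling 0 were called by edgeR and 0 by DESeq2, and at an unadjusted p under 0.05 there were 4 on the ZnSO4 side and 2 on the Dex side (median LFC 0.17). Slc11a2, the iron importer DMT1, had an LFC of 0.61 ± 0.12, adjusted p = 0.00351, inside the cut-off.

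Genes known to be induced by glucocorticoids were the mark of the other arm: 16 of 19 were higher with Dex, against 4.24% of all genes tested, and 0 were higher with ZnSO4 by edgeR, by DESeq2 or at an unadjusted p under 0.05, and the list's median LFC was -2.10. Fkbp5, a co-chaperone that restrains GR, had 1116, 950.0 and 1116 normalised counts in the ZnSO4 mice and 10754, 10423 and 12396 in the Dex mice (LFC -3.40 ± 0.13, adjusted p = 1.8e-07). Normalised counts of Tsc22d3, which encodes the anti-inflammatory protein GILZ, were 549.7, 666 and 665 against 5274, 6289.9 and 6553 (LFC -3.27 ± 0.17, adjusted p = 6.36e-07). The mTOR inhibitor Ddit4 had 280.0, 369 and 307 against 6240.1, 5986 and 5755 (LFC -4.23 ± 0.20, adjusted p = 3.61e-07). In all these genes each Dex mouse exceeded each ZnSO4 mouse several times over. Hif3a (LFC -4.07 ± 0.31), the clock gene Per1 (-2.10 ± 0.09), the kinase Sgk1 (-1.86 ± 0.16), the cell cycle inhibitor Cdkn1a (-1.76 ± 0.15) and the lipase inhibitor Angptl4 (-2.77 ± 0.46) were called in the same direction. Cebpd (-1.26, adjusted p = 0.075), Bcl6 (-0.74, adjusted p = 0.0791) and Cebpb (-0.21, adjusted p = 0.632) were not called. Dusp1 (LFC -1.18, adjusted p = 0.0186) was called, and lost its call without Dex replicate 2 or 3 or ZnSO4 replicate 1 (adjusted p = 0.0623, 0.0515 and 0.0735). The median LFC of this list against water + PBS was -0.04 with ZnSO4 and 2.21 with Dex, and both of these share the same control mice. Errfi1, a feedback inhibitor of the EGF receptor, is an example of a gene past the cut-offs against water with both agents: its LFC against water was 0.84 with ZnSO4 and 3.24 with Dex (adjusted p = 0.0135 and 6.66e-07), and the direct LFC was -2.40 ± 0.16.

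**Figure D2:**
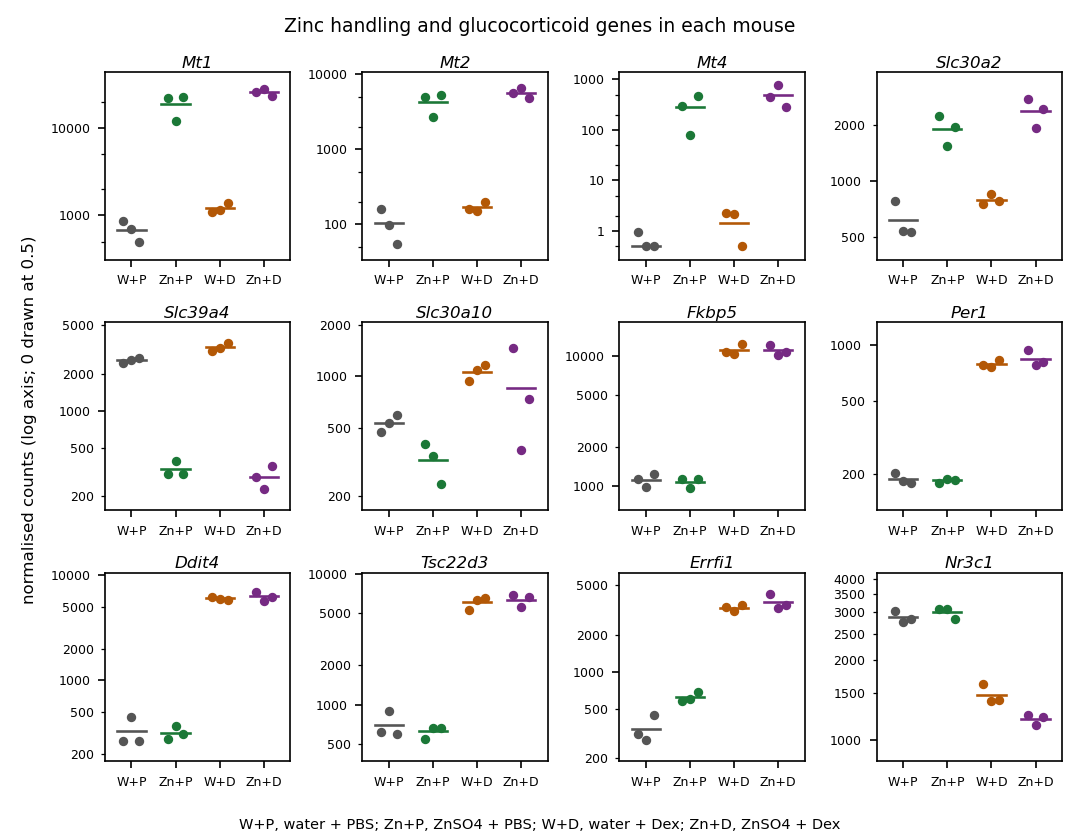
Normalised counts (log axis) of 12 genes of zinc handling and of the glucocorticoid response in each mouse of the 4 groups, with group means as bars; a count of 0 is drawn at 0.5. Mt1, Mt2 and Mt4 are high in both groups that drank ZnSO4, Slc39a4 is low in them, and Fkbp5, Per1, Ddit4 and Tsc22d3 are high in both groups that were given Dex.

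Sgk1 is the gene of that list whose windows hold the core of a glucocorticoid response element, ACANNNTGT, which reads the same way on both strands. The stretch before one of its start sites, chr10:21978422-21978701 (RefSeq, GRCm38.p6, plus strand), is shown with the match in capitals, 127 bases before the start.
Sgk1: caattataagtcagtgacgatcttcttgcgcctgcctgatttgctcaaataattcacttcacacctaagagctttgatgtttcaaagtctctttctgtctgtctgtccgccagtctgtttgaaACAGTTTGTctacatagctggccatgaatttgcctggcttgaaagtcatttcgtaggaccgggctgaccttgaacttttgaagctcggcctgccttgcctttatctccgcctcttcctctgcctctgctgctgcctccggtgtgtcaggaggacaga
The core was present in 2 of 27 windows of the list, both of Sgk1, against 4.66% of all windows, 5.90% of those of genes higher with ZnSO4 and 7.26% of those of genes higher with Dex. The windows of Fkbp5, Per1, Ddit4 and Tsc22d3 hold no match, which says only that these letters are not within 300 bases at the start.

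The receptor itself separated the treatments in the opposite direction to its targets. Nr3c1, the gene of GR, had 3084, 3073 and 2839 normalised counts in the ZnSO4 mice and 1624, 1407 and 1413 in the Dex mice (LFC 1.02 ± 0.08, adjusted p = 8.14e-06), with no overlap. Its LFC against water was 0.06 with ZnSO4 and -0.96 with Dex (adjusted p = 0.704 and 1.56e-05). Of 12 tested genes for GR, its chaperones and steroid metabolism 1 was higher with ZnSO4 and 3 with Dex, against 3.07% and 4.24% of all genes (median LFC -0.19). Hsd11b1, which reactivates glucocorticoids in tissues, was higher with Dex (LFC -1.03 ± 0.16, adjusted p = 0.000879). H6pd (-0.83, adjusted p = 0.00483), which supplies Hsd11b1 with NADPH, and Hsd11b2 (-0.89, adjusted p = 0.00788), which inactivates glucocorticoids, were near the cut-off, and Hsd11b2 lost its call without ZnSO4 replicate 1 (LFC -0.73) and H6pd without Dex replicate 3 or ZnSO4 replicate 2 (-0.70 and -0.78). The mineralocorticoid receptor Nr3c2 had an LFC of 0.60 ± 0.09.

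Of 18 clock genes 4 were higher with Dex and 2 with ZnSO4, against 4.24% and 3.07% of all genes (median LFC 0.13). The repressors Per1 and Cry2 (LFC -1.63 ± 0.24, adjusted p = 0.000678) and the transcription factor Nfil3 (LFC -1.45 ± 0.20, adjusted p = 0.000421) were higher with Dex. Nr1d1, the repressor REV-ERBα, was higher with ZnSO4 at 114, 86.9 and 107 against 33.4, 40.0 and 22.7 (LFC 1.68 ± 0.22, adjusted p = 0.000323), and its 3 water + PBS mice (48.6, 56.2 and 39.9) lay below the ZnSO4 mice, and the lowest of them was within the range of the Dex mice. Per2 (-0.96, adjusted p = 0.024) lost its call without Dex replicate 1 or 3 or any 1 of the ZnSO4 mice (adjusted p up to 0.0839), and Dbp (1.31, adjusted p = 0.05) lost it without any 1 of the 6 mice (LFC 1.16 to 1.48 and adjusted p up to 0.148 with 1 mouse left out). The core activators Arntl (-0.26 to 0.25) and Clock (0.04 to 0.38) were not called, and the ranges in brackets are the 95% intervals of their LFC.

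The genes with the highest LFC in size outside these lists were mostly near the floor in one of the groups. Myot, which encodes myotilin of the muscle Z-disc, had 0.943, 0 and 1.85 normalised counts in the ZnSO4 mice and 440.4, 451 and 499 in the Dex mice. That is 1275 counts against 3, a ratio of normalised counts of 500.0 (95% counting interval 171 to 2430.0). The water + PBS mice were in the gap between the groups with 18.5, 13.0 and 19.0. BB123696 had 379 counts against 1, a ratio of normalised counts of 446 (95% counting interval 79.5 to 17700.0), and Gsc, a homeobox gene of the early embryo, 183 counts against 2, a ratio of normalised counts of 108 (95% counting interval 29.4 to 895). Meltf, a membrane transferrin, had 338 counts against 4, a ratio of normalised counts of 99.4 (95% counting interval 38.5 to 367). Gm11827 had 82 counts against 2, a ratio of normalised counts of 48.2 (95% counting interval 12.9 to 405). All 5 were higher with Dex, as were Aire, the factor that drives tissue antigens in the thymus (0, 3.66 and 0 against 195, 82.1 and 246), and Gm13857 (3.77, 0 and 0.926 against 39.0, 48.6 and 51.9). Adh6a, an alcohol dehydrogenase, had 88.6, 65.9 and 32.4 against 3512, 3563 and 4817 (LFC -5.99 ± 0.31, adjusted p = 5.6e-07). Gml, of the Ly6 family, had 5.66, 4.58 and 0.926 against 161, 159.8 and 222 (LFC -5.56 ± 0.58, adjusted p = 6.85e-05). The skeletal α-actin gene Acta1 was higher with Dex in each mouse, 69.8, 78.7 and 38.0 against 1816, 1699 and 1958 (LFC -4.87 ± 0.51, adjusted p = 7.7e-05). Its LFC against water was -4.105 with ZnSO4 and 0.77 with Dex (adjusted p = 0.00141 and 0.313).

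On the ZnSO4 side, beside the metallothioneins, Spsb4 had 30.2, 36.6 and 33.3 normalised counts against 2.23, 1.08 and 2.16, or 108 counts against 5, a ratio of normalised counts of 18.4 (95% counting interval 7.63 to 57.7). The nucleoside transporter Slc28a1 had 40.5, 23.8 and 22.2 against 2.23, 2.16 and 1.08, or 93 counts against 5, a ratio of normalised counts of 15.8 (95% counting interval 6.54 to 49.8). The adhesion molecule Igsf9 stood at 1666, 1906 and 2270.2 against 232, 276 and 195 (LFC 3.06 ± 0.22, adjusted p = 5.18e-06). Edn2, which encodes endothelin 2, stood at 221, 239 and 274 against 24.5, 41.0 and 34.6 (LFC 2.87 ± 0.26, adjusted p = 2.9e-05). Each of these had no overlap, as had Ky (LFC 2.85 ± 0.40), Zyg11a (2.80 ± 0.40) and the olfactory receptor gene Olfr165 (2.75 ± 0.34). Against water, Spsb4, Slc28a1 and Olfr165 were higher with ZnSO4 (LFC 1.96, 3.805 and 1.55, adjusted p = 0.00451, 0.00273 and 0.0165). Igsf9, Edn2, Ky and Zyg11a did not pass with ZnSO4 (LFC 0.47, 0.50, 0.09 and 0.85, adjusted p = 0.21, 0.266, 0.908 and 0.187). With Dex the latter were below water (LFC -2.582, -2.371, -2.765 and -1.955, adjusted p up to 0.0109). Cyp2c55, a cytochrome P450 of the gut, had 5119, 9044 and 1466 against 528, 382 and 75.6 (LFC 3.99 ± 1.07, adjusted p = 0.0236), and ZnSO4 replicate 2 was the highest mouse. Its call was lost without any Dex mouse or without ZnSO4 replicate 2 (adjusted p = 0.0533, 0.0701, 0.0814 and 0.0667).

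Most of the listed epithelial genes that microbes are known to induce differed. Of 20 tested genes 13 were higher with Dex, against 4.24% of all genes, 1 was higher with ZnSO4 (3.07% of all genes) and 6 were not called, with a median LFC of -1.73. The median LFC of the list against water + PBS was -1.55 with ZnSO4 and 0.132 with Dex. Normalised counts of Reg3g, an antibacterial lectin, were 9081, 13115 and 15714 in the ZnSO4 mice and 102269, 108657 and 110467 in the Dex mice (LFC -3.08 ± 0.39, adjusted p = 0.00024). The Dex mice were within the range of the water + PBS mice (154290.1, 109954 and 68946), and the LFC against water was -3.14 with ZnSO4 and -0.05 with Dex. Saa1, a serum amyloid A gene, had 23.6, 97.9 and 144 against 4106, 2984 and 4474 (LFC -5.44 ± 0.54, adjusted p = 5.53e-05), with the water + PBS mice at 4309.5, 4063 and 1876. For Saa1 46.8% of the exonic stretches of 31 bases are found in a second gene too (46% in Saa2), so its value is uncertain. Fut2, which fucosylates the epithelial surface, had 25.5, 40.3 and 44.5 against 385, 316 and 310.1 (LFC -3.19 ± 0.37, adjusted p = 0.000129), and Reg3b had an LFC of -2.16 ± 0.35. The oxidase Duox2 (-2.10 ± 0.25) and its partner Duoxa2 (-2.48 ± 0.26) were higher with Dex as well, and 42.8% of the exonic bases of Duoxa2 lie opposite Duoxa1. Duoxa2 was nevertheless below water with both agents, with an LFC of -3.395 with ZnSO4 and -0.91 with Dex (adjusted p = 0.000119 and 0.0337).

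Lcn2, the iron-siderophore binder lipocalin 2, differed in another manner. It had 20.7, 18.3 and 32.4 normalised counts in the ZnSO4 mice and 1171, 1375 and 1334 in the Dex mice (LFC -5.75 ± 0.26, adjusted p = 2.46e-07), while the water + PBS mice had 55.4, 49.2 and 25.7. Against water the LFC was -0.86 with ZnSO4 and 4.90 with Dex (adjusted p = 0.11 and 5.23e-07). Reg4 was the member higher with ZnSO4, at 2127, 2569.8 and 4279 against 1114, 799 and 854 (LFC 1.70 ± 0.29, adjusted p = 0.00191). The inducible nitric oxide synthase Nos2 had an LFC of -1.39 ± 0.32 and the epithelial cytokine Il18 -2.12 ± 0.21. Duox1 (-1.51, adjusted p = 0.0295) lost its call without any 1 of the 6 mice (LFC -1.61 to -1.40 and adjusted p up to 0.1 with 1 mouse left out), Pigr, the transporter of IgA, stayed below the cut-off (-0.66 ± 0.15), and Dmbt1, a mucin-like scavenger named after its values were seen, was higher with Dex (-2.44 ± 0.30, adjusted p = 0.000227).

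Part of the antigen presentation genes differed. MHC class II genes gave 6 of 9 higher with Dex, against 4.24% of all genes tested, and 0 higher with ZnSO4 by edgeR, by DESeq2 or at an unadjusted p under 0.05 (median LFC -1.03). H2-Aa had 4379, 6028 and 3517 normalised counts in the ZnSO4 mice and 10299.5, 13612 and 11809.5 in the Dex mice (LFC -1.36 ± 0.25, adjusted p = 0.00264), with no overlap, and the water + PBS mice (9432, 13862 and 10249) lay around the Dex mice. The invariant chain Cd74 (LFC -1.23 ± 0.23), H2-Ab1 (-1.08 ± 0.22), H2-DMa (-1.03 ± 0.18) and H2-DMb1 (-1.36 ± 0.20) were called in the same direction. The B cell forms H2-Oa (0.59, adjusted p = 0.76) and H2-Ob (0.62, adjusted p = 0.801) did not pass. H2-Eb1 lost its call without Dex replicate 2 or ZnSO4 replicate 1 or 3 (adjusted p = 0.0593, 0.0577 and 0.0609). In RNA from whole tissue, fewer cells of a type and less RNA per cell cannot be told apart.

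MHC class I genes gave 7 of 19 higher with Dex by edgeR, against 4.24% of all genes, and 6 by DESeq2, and the LFC of all 19 was below 0 (median -0.66). B2m, the light chain of class I, had 13153, 13194 and 12354 against 24483, 28610.0 and 25131 (LFC -1.01 ± 0.14, adjusted p = 0.0005). The heavy chain H2-D1 (-1.03 ± 0.14, adjusted p = 0.000422) and the immunoproteasome subunit Psmb8 (-1.09 ± 0.15, adjusted p = 0.000482) were called too, as was the class I transactivator Nlrc5, of the list of IRF and STAT factors (-1.44 ± 0.24, adjusted p = 0.00171). Several members sat at the cut-off: the count of 7 was 3 without Dex replicate 2 and 4 without ZnSO4 replicate 3, and H2-K1 (-0.82, adjusted p = 0.00345) lost its call without Dex replicate 2 (LFC -0.71) and without ZnSO4 replicate 3 (-0.79). Tap1 (-0.65 ± 0.21), Tap2 (-0.51 ± 0.15) and H2-T23 (-0.66 ± 0.13) stayed inside it.

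Of 12 tested T cell markers 3 were higher with Dex, against 4.24% of all genes, and 0 with ZnSO4 by edgeR, by DESeq2 or at an unadjusted p under 0.05. Their summed level was 99.1 to 141 CPM in the ZnSO4 mice and 236 to 379 CPM in the Dex mice, with the water + PBS mice at 219 to 335 CPM. The median LFC of these markers against water was -0.768 with ZnSO4 and -0.258 with Dex. Gzma made up much of the sum, and it was left out after its values were seen. The other 11 markers summed to 60.9 to 118 CPM in the ZnSO4 mice and 115 to 172 CPM in the Dex mice, ranges that overlap. Gzma, a granzyme of intraepithelial lymphocytes, had 399.8, 239.8 and 415 normalised counts in the ZnSO4 mice and 1347, 2532 and 1493 in the Dex mice (LFC -2.35 ± 0.29, adjusted p = 0.000212). Gzmb (LFC -2.29 ± 0.33) and Cd8a (-1.46 ± 0.21) were called too. The receptor genes Cd3e (-0.57, adjusted p = 0.0929) and Trac (-0.29, adjusted p = 0.729) were not called, and no marker of the 12 was at 0 in a whole group. Whether the T cell share has a part in the MHC, granzyme or cytokine results was not tested. Macrophage and dendritic cell markers (407 to 647 against 458 to 585 CPM) gave 1 of 12 higher with Dex, against 4.24% of all genes, and B cell markers (14.1 to 614 against 16.2 to 274 CPM) gave 0 of 11 called by edgeR, by DESeq2 or at an unadjusted p under 0.05.

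Of 30 effector genes of the interferon response 3 were higher with ZnSO4 and 5 with Dex, against 3.07% and 4.24% of all genes, and the median LFC was -0.11. Oas1a, at the cut-off (LFC -0.83, adjusted p = 0.00571), lost its call with upper-quartile factors, with a B cell covariate and without Dex replicate 2 or 3 or ZnSO4 replicate 1 or 2 (LFC -0.95 to -0.75 and adjusted p up to 0.0317 with 1 mouse left out). Zbp1, a sensor of Z-form nucleic acid that can start necroptosis, had 146, 167 and 195 normalised counts in the ZnSO4 mice and 790.5, 947 and 805 in the Dex mice (LFC -2.32 ± 0.22, adjusted p = 3.26e-05), with the water + PBS mice at 979, 982 and 591. Usp18, which removes ISG15 and restrains the interferon receptor, had 48.1, 48.5 and 63.9 against 607, 664 and 730.5 (LFC -3.64 ± 0.33, adjusted p = 2.45e-05), with the water + PBS mice wholly between the groups (122, 158 and 69.4). Neither gene had overlapping groups. Cmpk2 pointed the other way with 718, 571 and 628 against 229.7, 228 and 206 (LFC 1.53 ± 0.16, adjusted p = 8.43e-05), and here the water + PBS mice (471, 653 and 486) overlapped the ZnSO4 mice. Ifit3 was higher with ZnSO4 (LFC 1.19 ± 0.18, adjusted p = 0.000914), but 61.8% of its exonic stretches of 31 bases are found in Ifit3b too, so both values are uncertain, and the call of Ifit3b was lost on leaving out any 1 mouse other than ZnSO4 replicate 1 (LFC 0.93 to 1.57 and adjusted p up to 0.166 with 1 mouse left out). Ifit1 had an LFC of 0.01 (95% interval -0.45 to 0.47) and Irf1 one of 0.37 (0.15 to 0.59).

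Interferon-induced GTPases, which attack vacuoles of intracellular microbes, gave 5 of 16 higher with Dex, against 4.24% of all genes, and 0 higher with ZnSO4 by edgeR, by DESeq2 or at an unadjusted p under 0.05 (median LFC -0.52). The median LFC of this list against water + PBS was below 0 with both agents, -0.9 with ZnSO4 and -0.515 with Dex. Irgm1 had 546, 579 and 701 against 1568, 1312 and 1449 normalised counts (LFC -1.25 ± 0.15, adjusted p = 0.000232), and Ifi47 an LFC of -1.07 ± 0.17. Igtp (-1.17, adjusted p = 0.0204) lost its call without Dex replicate 1 or 2 or ZnSO4 replicate 1 or 2 (adjusted p = 0.0605, 0.0663, 0.0654 and 0.0656). Gbp2 (-0.56 ± 0.26) and Irgm2 (-0.49 ± 0.28) were below the cut-off. Of 19 IRF and STAT factors Nlrc5 was the 1 called, by edgeR and by DESeq2 (median LFC -0.03).

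The stretches before Ifit3 (chr19:34583279-34583558, plus strand) and Irgm1 (chr11:48871391-48871670, minus strand) are shown because these 2 genes hold the same interferon motif and separated the treatments in opposite directions. Each has 250 bases before and 30 from the start site (RefSeq, GRCm38.p6; that of Irgm1 is 263 bases after the first of its annotated starts), 5′ to 3′ along the gene, with matches on either strand to GAAANNGAA, the core of the interferon-stimulated response element, in capitals.
Ifit3: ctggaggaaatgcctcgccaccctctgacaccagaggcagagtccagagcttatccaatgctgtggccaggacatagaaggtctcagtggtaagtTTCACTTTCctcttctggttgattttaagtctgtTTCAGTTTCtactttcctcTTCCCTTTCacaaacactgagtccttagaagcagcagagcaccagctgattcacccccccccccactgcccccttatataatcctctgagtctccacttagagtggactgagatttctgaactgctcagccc
Irgm1: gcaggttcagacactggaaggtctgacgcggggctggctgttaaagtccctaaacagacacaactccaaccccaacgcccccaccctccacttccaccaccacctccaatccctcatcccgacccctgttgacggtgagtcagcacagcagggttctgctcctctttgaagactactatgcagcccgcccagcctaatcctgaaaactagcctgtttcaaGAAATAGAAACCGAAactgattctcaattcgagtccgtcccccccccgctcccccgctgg
Ifit3 holds 3 separate matches and Irgm1 holds 2 that overlap, the first 30 bases before the start. Against water the LFC of Ifit3 was 0.08 with ZnSO4 and -1.12 with Dex (adjusted p = 0.8485 and 0.00222). That of Irgm1 was -0.77 with ZnSO4 and 0.48 with Dex (adjusted p = 0.0181 and 0.0752). The core occurs in 17 of 24 windows of the interferon effectors (70.8%) and 10 of 12 of the GTPases (83.3%), against 7.36% of all windows, 9.30% of those of genes higher with ZnSO4 and 10.1% of those of genes higher with Dex. In the MHC class I list 3 of 19 windows held it.

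Inflammatory cytokines separated the treatments one by one. Of 27 tested cytokines and chemokines 5 were higher with ZnSO4 and 6 with Dex, against 3.07% and 4.24% of all genes (median LFC -0.03), and most are expressed at a low level. Il1b had 26.4, 42.1 and 23.2 normalised counts in the ZnSO4 mice and 5.57, 7.56 and 2.16 in the Dex mice (LFC 2.56 ± 0.45, adjusted p = 0.00225). The interferon-induced chemokine Cxcl10 had 24.5, 36.6 and 37.0 against 11.1, 9.72 and 8.64 (LFC 1.72 ± 0.36, adjusted p = 0.00639). Both were higher in the water + PBS mice (98.3, 81.3 and 45.6 for Il1b and 149, 119 and 62.7 for Cxcl10) than in either treated group. Against water the LFC of Cxcl10 was -1.75 with ZnSO4 and -3.47 with Dex (adjusted p = 0.00865 and 6.97e-05), and that of Il1b was -1.29 with ZnSO4 and -3.85 with Dex (adjusted p = 0.0543 and 0.000164). Cxcl9, another ligand of CXCR3, was higher with Dex instead (76.4, 78.7 and 77.8 against 252, 231 and 172, LFC -1.49 ± 0.32, adjusted p = 0.00696). Ccl28 (LFC -1.71 ± 0.13), an attractant of IgA plasma cells, and the T cell chemokine Ccl5 (-1.42 ± 0.28) were higher with Dex. Il10 had 45 counts against 3, a ratio of normalised counts of 17.6 (95% counting interval 5.66 to 88.8), higher with Dex. Ccl2 (4.33, adjusted p = 0.0268) and Cxcl5 (3.40, adjusted p = 0.0241) were called higher with ZnSO4, but Ccl2 lost its call without any Dex mouse or ZnSO4 replicate 3 (LFC 3.59 to 4.73 and adjusted p up to 0.0835 with 1 mouse left out) and Cxcl5 without Dex replicate 1 or 2 or ZnSO4 replicate 1 or 3 (LFC 2.88 to 6.70 and adjusted p up to 0.08 with 1 mouse left out). The ZnSO4 count of 5 was 3 without Dex replicate 1 or 2 or ZnSO4 replicate 3. All 5 called members on the ZnSO4 side had fewer than 10 counts in at least 1 of the 12 libraries.

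Of 19 NF-kB genes 2 were higher with each agent, against 3.07% of all genes for ZnSO4 and 4.24% for Dex (median LFC 0.03). Nfkbia, the inhibitor IκBα, was higher with Dex (927, 1308 and 852 against 2567, 2051 and 2607, LFC -1.23 ± 0.23, adjusted p = 0.00345), as was the feedback inhibitor Tnip1 (-1.21 ± 0.15). Bcl3, a nuclear IκB protein, was higher with ZnSO4 at 322, 437 and 354 against 122, 85.3 and 142 (LFC 1.68 ± 0.22, adjusted p = 0.000367). Against water the LFC of Bcl3 was -0.64 with ZnSO4 and -2.31 with Dex (adjusted p = 0.114 and 5.59e-05). The call of the adhesion molecule Icam1 (1.28, adjusted p = 0.0446) was lost without Dex replicate 2 or 3 or ZnSO4 replicate 2 or 3 (LFC 0.98 to 1.64 and adjusted p up to 0.149 with 1 mouse left out). Among 24 genes of necroptosis, pyroptosis and death receptors the death ligand Tnfsf10 (LFC 0.96 ± 0.14, adjusted p = 0.00065) and its receptor Tnfrsf10b (1.02 ± 0.20, adjusted p = 0.00407) were higher with ZnSO4, and Zbp1 alone was higher with Dex (median LFC -0.11), against 3.07% and 4.24% of all genes. In the values printed by the paper, Tnfsf10 was highest in the water + PBS mice, lower with ZnSO4 and lower still with Dex. The necroptosis genes Ripk3 (-0.61 ± 0.13) and Mlkl (-0.31 ± 0.15) were below the LFC cut-off, although Ripk3 passed the test (adjusted p = 0.00796).

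**Figure D3:**
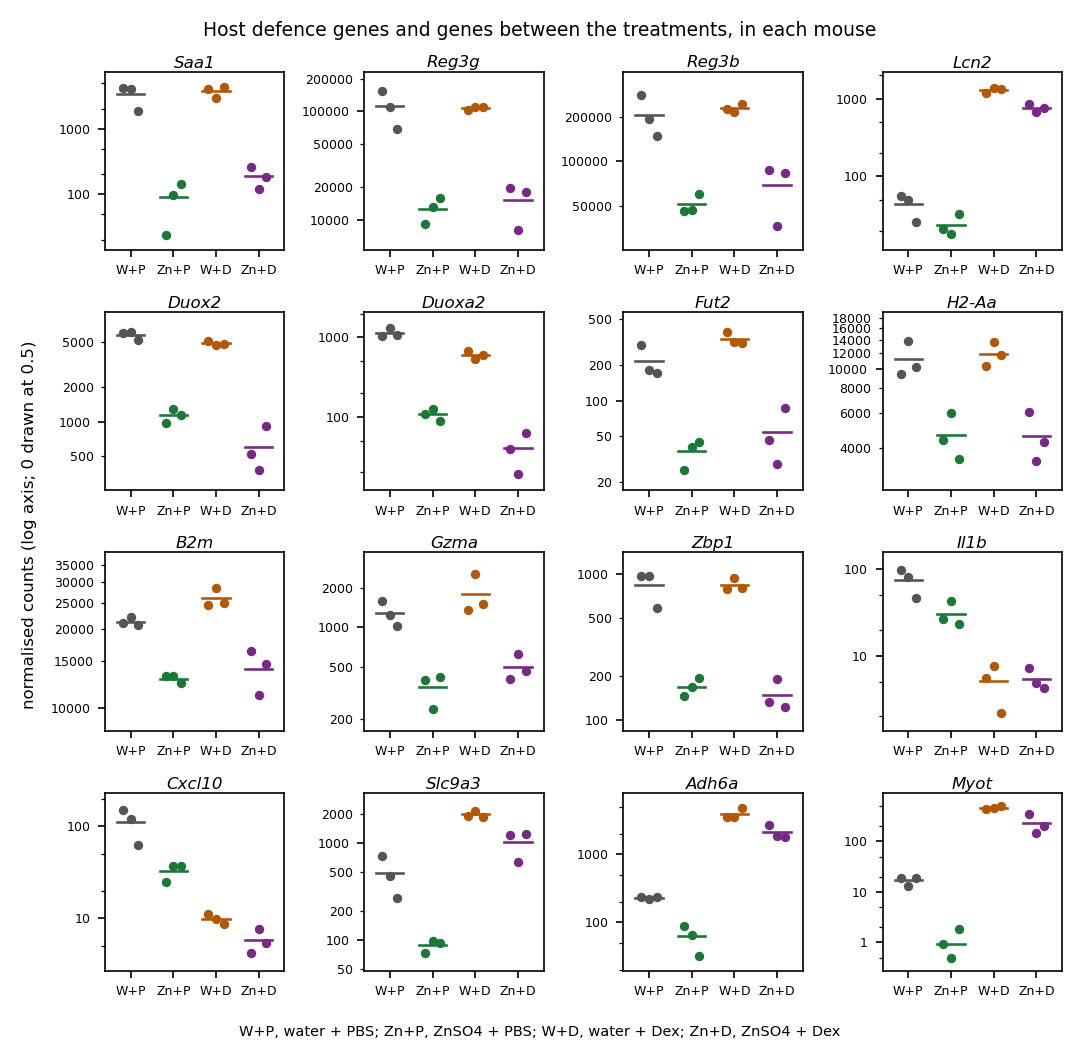
Normalised counts (log axis) of 16 genes of host defence, antigen presentation, inflammation and transport in each mouse of the 4 groups, with group means as bars; a count of 0 is drawn at 0.5. Reg3g, Saa1 and H2-Aa are low in the ZnSO4 mice with the Dex mice near the water + PBS mice, Lcn2 is high in the Dex mice, and Cxcl10 and Il1b are highest in the water + PBS mice.

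The lists on transport and metabolism held at most 3 called genes each in either direction. Over all genes tested 3.07% were higher with ZnSO4 and 4.24% with Dex. Slc9a3, the apical sodium-proton exchanger NHE3, had 73.5, 97.9 and 92.6 normalised counts in the ZnSO4 mice and 1912, 2152 and 1875 in the Dex mice (LFC -4.49 ± 0.37, adjusted p = 1.4e-05), with the water + PBS mice wholly between them at 734, 458 and 269.9. Its LFC against water was -2.47 with ZnSO4 and 2.02 with Dex (adjusted p = 0.00322 and 0.00189). Of 13 tested genes of sodium and chloride transport 3 were higher with Dex (median LFC -0.61), the other two being the glucose cotransporter Slc5a1 (-1.52 ± 0.21, adjusted p = 0.000554) and the chloride-bicarbonate exchanger Slc26a3 (-1.20 ± 0.23, adjusted p = 0.00357). Pck1, the enzyme that commits to gluconeogenesis, had 660.0, 563 and 686 against 5895, 9463 and 7238 (LFC -3.56 ± 0.32, adjusted p = 2.56e-05) and was above the water + PBS mice (237, 214 and 107) in both groups. Tat, tyrosine aminotransferase, had 23.6, 29.3 and 37.0 against 408, 342 and 633 (LFC -3.94 ± 0.33, adjusted p = 1.47e-05), and its water + PBS mice (411, 279.9 and 219) were near the Dex mice. With Gpt, which lost its call without ZnSO4 replicate 3 (LFC -0.74), 3 of 11 genes of gluconeogenesis were higher with Dex (median LFC -0.38).

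Fat metabolism showed 3 of 21 genes of fatty acid oxidation higher with Dex and 1 higher with ZnSO4, against 4.24% and 3.07% of all genes (median LFC -0.35): the receptor Ppara had 252, 264 and 229.7 against 929.8, 933 and 1023 (LFC -1.95 ± 0.16, adjusted p = 1.39e-05), Pdk4 an LFC of -2.67 ± 0.55, and the lipid droplet protein Plin2 0.95 ± 0.13. Pdk4 and Angptl4 also stand in the glucocorticoid list. The 24 genes of sterol and fatty acid synthesis had a median LFC of -0.29. Among them Msmo1, an enzyme of cholesterol synthesis, was higher with Dex (LFC -0.83, adjusted p = 0.0208) but lost its call without Dex replicate 2 or 3 or ZnSO4 replicate 2 or 3 (LFC -0.97 to -0.77 and adjusted p up to 0.08 with 1 mouse left out). The ileal bile acid importer Slc10a2 was higher with Dex (LFC -0.99 ± 0.23, adjusted p = 0.0106), while its list (3 of 9 higher with Dex, median LFC -0.13) fell to 1 without Dex replicate 2. Lrat, which stores retinol as esters, and Rdh7 were higher with ZnSO4 (LFC 1.09 ± 0.14, adjusted p = 0.000285 and 1.14 ± 0.25, adjusted p = 0.00782), and the other two called genes of the 17 on retinoids, Bco1 and Rdh16, were higher with Dex (median LFC of the list 0.06). Bco1 lost its call without Dex replicate 1 or 3 or ZnSO4 replicate 1 or 2 (LFC -1.19 to -0.76 and adjusted p up to 0.104 with 1 mouse left out), and Rdh16 without Dex replicate 1 or 2 or ZnSO4 replicate 1 or 2 (LFC -1.27 to -0.96 and adjusted p up to 0.111 with 1 mouse left out).

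The remaining lists held 0 to 3 called genes in each direction, against 3.07% of all genes for ZnSO4 and 4.24% for Dex. Of 20 genes for EGF receptor ligands and MAPK feedback 3 were higher with ZnSO4 and 3 with Dex (median LFC 0.45). Dusp5 (LFC 1.20 ± 0.12, adjusted p = 6.11e-05), a phosphatase of nuclear ERK, was higher with ZnSO4, and the ligand Tgfa (-1.38 ± 0.16, adjusted p = 0.000122) was higher with Dex. Of 21 immediate early genes Maff (-1.49 ± 0.14, adjusted p = 2.92e-05) and Atf3 (-1.14 ± 0.25, adjusted p = 0.00903) were higher with Dex (median LFC -0.17). Of 11 SOCS and Pim genes Pim3 (-1.28 ± 0.14, adjusted p = 0.000101) was higher with Dex and Cish (1.07 ± 0.21, adjusted p = 0.00477) with ZnSO4 (median LFC 0.16). Among 18 genes of the integrated stress response 2 were higher with Dex, Atf3 and the amino acid transporter Slc7a5 (-1.04 ± 0.15), and 1 with ZnSO4, Trib3, whose call was lost without any Dex mouse or ZnSO4 replicate 1 or 3 (LFC 0.99 to 1.32 and adjusted p up to 0.108 with 1 mouse left out; median LFC of the list -0.25). Of 19 antioxidant genes Gpx2, a glutathione peroxidase of the gut epithelium (2939, 2628 and 3373 against 7081, 6527 and 7466, LFC -1.24 ± 0.15, adjusted p = 0.000155), was higher with Dex, and the glutathione transferases Gstm1 (0.84, adjusted p = 0.00072), Gsta1 (1.43, adjusted p = 0.0207) and Gsta4 (0.87, adjusted p = 0.029) were higher with ZnSO4 (median LFC 0.04). Of these Gstm1 lost its call without ZnSO4 replicate 1 (LFC 0.77 to 0.93 and adjusted p up to 0.00504 with 1 mouse left out), Gsta1 without Dex or ZnSO4 replicate 3 (LFC 1.19 to 1.58 and adjusted p up to 0.0809 with 1 mouse left out), and Gsta4 without Dex replicate 2 or 3 or ZnSO4 replicate 1 or 3 (LFC 0.72 to 1.09 and adjusted p up to 0.0924 with 1 mouse left out). Of 22 genes of S and M phase 1 was called, Rrm2, a subunit of ribonucleotide reductase (LFC -1.39 ± 0.16, adjusted p = 0.000155), while Mki67 had an LFC of -0.03 with a 95% interval of -0.25 to 0.19 (median of the list -0.10).

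**Figure D4:**
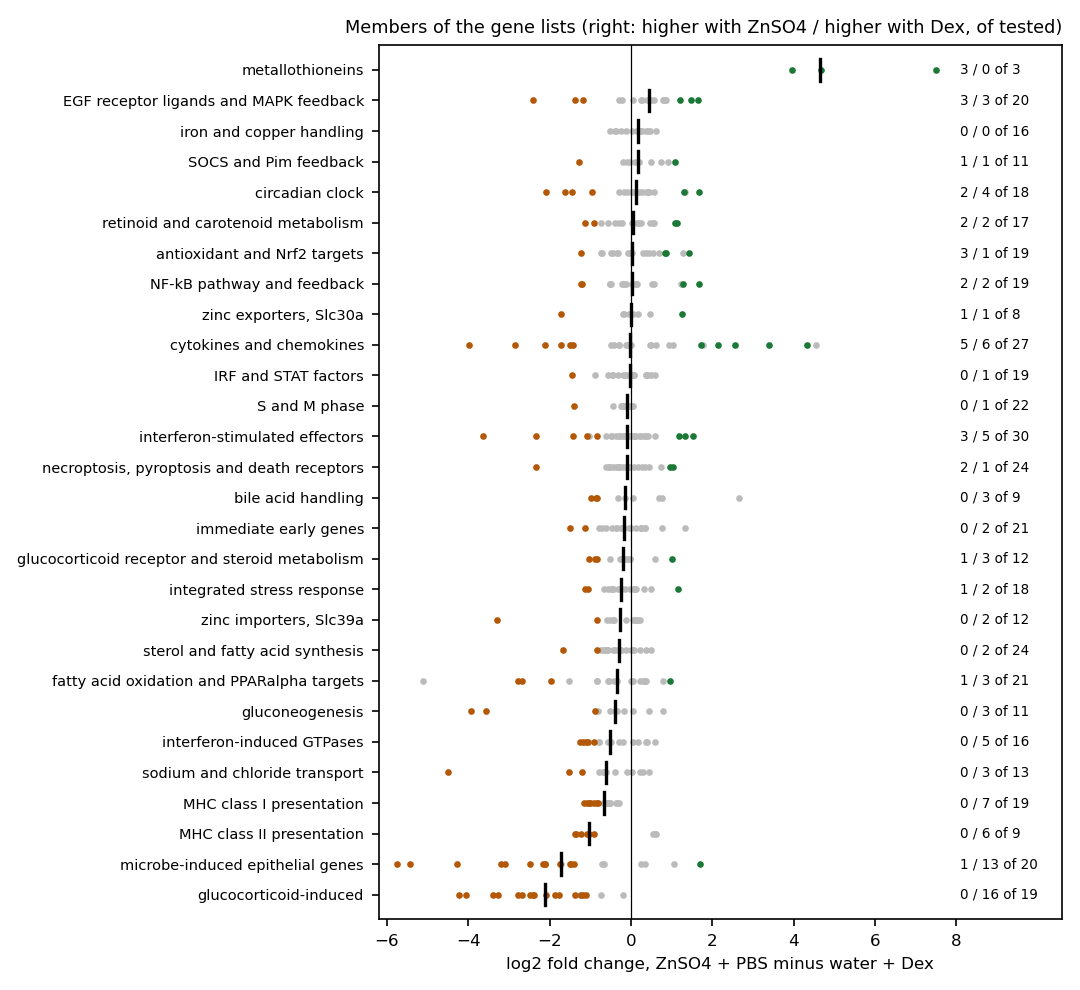
LFC between ZnSO4 and Dex mice (horizontal, log2 scale) of every tested member of each gene list (rows), with called members coloured and the list's median marked. The glucocorticoid-induced and the microbe-induced genes lie mostly left of 0, higher with Dex, and the metallothioneins lie right of 0.

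The water + PBS mice show on which side of the level with neither agent each difference lay. On a scale where 0 is the mean of the Dex mice and 1 the mean of the ZnSO4 mice (log2), the water + PBS mice were at a median of 0.63 for the genes higher with ZnSO4 and 0.736 for those higher with Dex. They were nearer to the ZnSO4 mice for 303 of the 490 and 462 of the 676 genes, and nearer to the Dex mice for 187 and 214. In 121 genes higher with ZnSO4 and 138 higher with Dex the 3 water + PBS mice lay wholly between the treated groups. Spsb4 had 8.76, 10.03 and 6.65 with neither agent, between the ZnSO4 and Dex values given above. Pcdh19, a protocadherin, had 41.8, 47.2 and 41.8 with neither agent, 144, 156 and 131 with ZnSO4 and 20.1, 20.5 and 23.8 with Dex. Syt2, a synaptotagmin, had 69.1, 40.1 and 87.4 with neither agent, 139.5, 101 and 132 with ZnSO4 and 24.5, 16.2 and 16.2 with Dex. In these 3 genes, as in Olfr165 and Nr2e3, every water + PBS mouse lay between the ZnSO4 and the Dex mice, although the step from water to ZnSO4 did not pass for Syt2 (adjusted p = 0.0641), nor that from water to Dex for Nr2e3 (adjusted p = 0.0703). On the Dex side, among genes with a mean of at least 1 CPM, Slc9a3, Myot, Gml, Gml2 and Adh6a were first when ranked by the smaller of their 2 steps from the water + PBS mice, and Adh6a had an LFC against water of -1.90 with ZnSO4 and 4.09 with Dex.

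Mice given both agents lay closer to the Dex mice. Their median position was 0.351 for the genes higher with ZnSO4, of which 170 were nearer to the ZnSO4 mice and 320 nearer to the Dex mice, and 0.18 for the genes higher with Dex, of which 196 were nearer to the ZnSO4 mice and 480 nearer to the Dex mice. Fkbp5 had 12209, 10263 and 10807 normalised counts in these mice and Lcn2 had 843, 669 and 754, near the Dex levels. Mt1 (25811, 27940.0 and 23484) and Slc39a4 (286, 229.6 and 356) stood near the ZnSO4 levels, as did Reg3g (19444, 7939 and 18033), H2-Aa (6089.5, 3437 and 4296) and Zbp1 (132, 191 and 122). Cxcl10 (4.15, 7.69 and 5.34) was below both. These positions are a description, since the called genes were chosen from the 2 groups that set the ends of the scale.

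**Figure D5:**
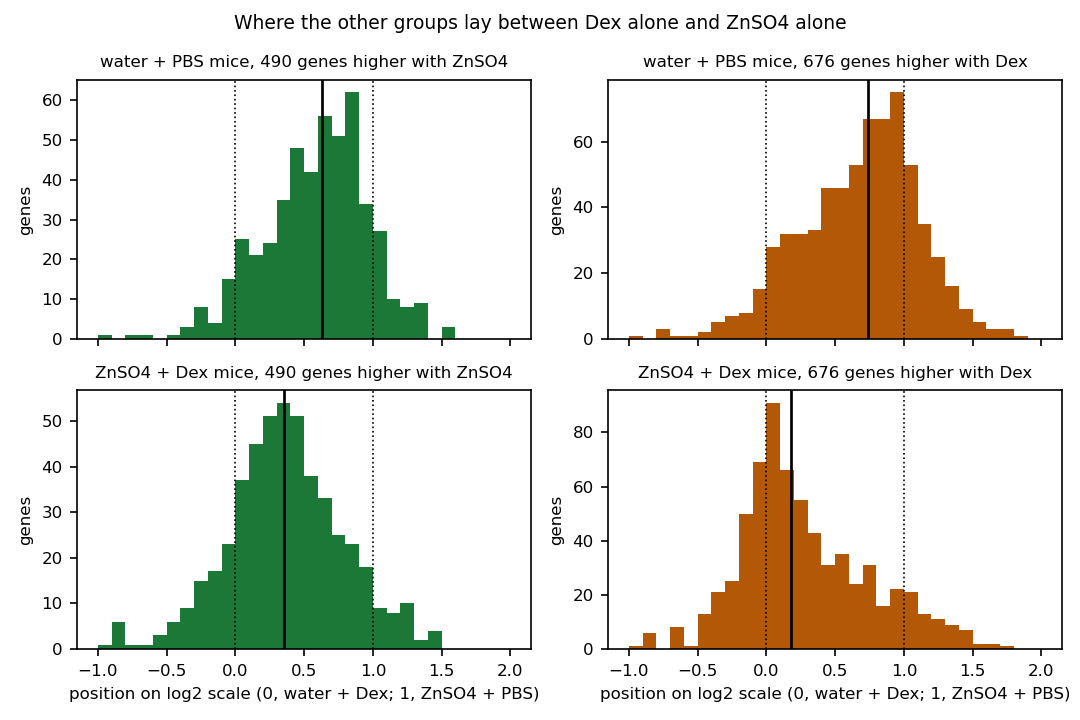
Number of called genes (vertical) by the position of the water + PBS mice and of the ZnSO4 + Dex mice on a log2 scale where 0 is the Dex mean and 1 the ZnSO4 mean (horizontal), for genes higher with ZnSO4 and with Dex; values outside -1 to 2 are in the end bins. The water + PBS medians are 0.63 and 0.736 and the ZnSO4 + Dex medians 0.351 and 0.18.

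A small set of genes was past the cut-offs in the same direction with both agents against water, 31 in all, and comparisons with water share its 3 mice. For 10 of the 31 the 95% interval of the direct LFC lay within -0.8 to 0.8, and 12 were called in the direct comparison. The interferon factor Irf1 had an LFC against water + PBS of -0.80 with ZnSO4 and -1.18 with Dex and a direct LFC of 0.37 (0.15 to 0.59). Ifit1 gave -0.88 with ZnSO4 and -0.89 with Dex and a direct LFC of 0.01, the GTPase Iigp1 -1.25 with ZnSO4 and -1.04 with Dex and -0.20 (-0.72 to 0.32), and the RNase Zc3h12a -1.20 with ZnSO4 and -0.98 with Dex and -0.22 (-0.60 to 0.17). Batf2 (0.50), Tm4sf20 (-0.02), Apol10a (-0.01) and Acox2 (0.22) are the others of highest level with such an interval.

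Markers of the labelled tissue were present: ileal enterocyte markers summed to 8100 to 12400 CPM in the ZnSO4 mice and 10600 to 12100 CPM in the Dex mice, with Slc10a2 and Slc51b of 7 called higher with Dex. Stem cell markers summed to 1340 to 1380 and 1370 to 1510 CPM, yet Lgr5 (343, 303 and 381 against 154, 146 and 167, LFC 1.14 ± 0.16, adjusted p = 0.000453) and Ascl2 (0.88 ± 0.19) were higher with ZnSO4, while Olfm4 (-0.50 to 0.14, the 95% interval) was not called. The 7 tested stem cell markers had a median LFC of 0.08 with 3 below 0, and 1 was higher with Dex at an unadjusted p under 0.05. Goblet markers summed to 15700 to 18600 and 13900 to 14600 CPM, and the mucin Muc2 was higher with ZnSO4 (LFC 0.93, adjusted p = 0.00784), a call lost without ZnSO4 replicate 3 (LFC 0.73). The 8 tested goblet markers had a median LFC of 0.03, with 4 below 0. Endothelial markers summed to 133 to 144 CPM in the ZnSO4 mice and 78.6 to 85.7 CPM in the Dex mice, with Kdr (1.10 ± 0.12, adjusted p = 0.000102) and Egfl7 (1.35 ± 0.19, adjusted p = 0.000497) of 5 called. Paneth markers overlapped widely (19400 to 25100 and 16900 to 32200 CPM), and of 11 tested Pla2g2a (-0.86, adjusted p = 0.022) and Mmp7 (-0.85, adjusted p = 0.0233) were called higher with Dex at the edge of the cut-off. Pla2g2a lost its call without any mouse other than Dex replicate 1 or 2 (LFC -0.99 to -0.63 and adjusted p up to 0.101 with 1 mouse left out), and Mmp7 without any other than Dex replicate 2 (LFC -0.98 to -0.60 and adjusted p up to 0.111 with 1 mouse left out). Of 6 hepatocyte markers 0 were called by edgeR and 2 by DESeq2, with 5 at an unadjusted p under 0.05. They summed to 385 CPM in Dex replicate 3, 6.51 and 10.4 CPM in the other Dex mice and 9.63 to 15.9 CPM in the ZnSO4 mice, and Alb was not called (LFC -4.53, adjusted p = 0.113). Over all genes 3.07% were higher with ZnSO4 and 4.24% with Dex. The part of these cell types in the gene results was not tested. A B cell covariate was among the alternative fits, and leaving out each mouse does not separate cell types.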

How the data were processed

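RNA of whole ileum was made into stranded single-end libraries. The deposited values are raw counts of reads per gene, and the submitters' processing notes name Trimmomatic, HISAT2 2.0.4, featureCounts, DESeq2 and the build mm10. The authors excluded reads with more than 1 position. The annotation release and the strand setting are not given in the sources used here. All 54838 identifiers were read, 54809 had a symbol and position (GENCODE M21, GRCm38), and 24517 genes were at 0 in all libraries.

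Genes were kept by filterByExpr (minimum count 10), leaving 15938 with 99.8% of the counts. One edgeR 4.0.16 quasi-likelihood model (R 4.3.3, TMM factors) of 4 group means was fitted to the 12 libraries, which share 1 estimate of the spread, with 8 residual degrees of freedom per gene and a common coefficient of variation of 0.191. Normalised counts are scaled to the mean effective library size of 11377723. Totals of 10760132 to 11827487 counts per library limit precision for genes with few counts, and counting intervals cover counting error only. For genes with up to 3 counts per library in one group the ratio of summed counts with its interval is given in place of the fitted LFC. On data simulated from these libraries edgeR recovered 73% of genes changed by an LFC of 1.5 and 99% of those changed by 2.5. Replicates of a group differed by more than sampling noise (chi-square per degree of freedom 7.63 to 15.3), so none was counted as a repeat. Replicate numbers did not pair the mice (correlation of deviations -0.0653 to 0.217).

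Named genes are the 12 with the largest LFC in each direction among called genes without overlap and with a mean of at least 1 CPM, the called members of each list (up to 6) and its first 2 members, up to 5 genes in each direction with the water + PBS mice wholly between, and up to 8 of the genes that moved alike against water. Other genes were named after their values were seen, mostly members of the lists. A few members of the lists are not reported here by name. The comparison, the 28 gene lists and the 21 lists of cell type markers were chosen with earlier results of these data known, so their counts are no independent evidence. Promoter windows come from RefSeq (GRCm38.p6) and covered 11438 of 15937 symbols. Alternatives were other scaling factors, other filters, a replicate block, the 6 libraries alone, a B cell covariate, DESeq2 1.42.0, other LFC cut-offs and leaving out each mouse.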

Additional observations from a re-analysis of the deposited data

How the results depend on the processing

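The counts of called genes, 490 higher with ZnSO4 and 676 higher with Dex, stayed within 1.5 times of these values with other scaling factors, other filters, DESeq2, the 6 libraries alone, a B cell covariate or an LFC beyond 1 (348 to 544 and 528 to 723), and with any 1 mouse left out they were 402 to 486 and 554 to 639. Without an LFC cut-off they were 1368 and 1439, and in a test against an LFC of 0.8 itself 106 and 246, so that the share of calls higher with Dex was 69.9% in place of 58%. Other scaling moved the median LFC of all genes by at most 0.0423. The replicate block gave 467 and 658 calls, and numbers did not pair the mice. Genes near an LFC of 0 changed sign without passing the test: with upper-quartile factors Irf2 (0.0142), Ripk1 (0.0166), Mki67 (0.0119), Tm4sf20 (0.0187) and Apol10a (0.0278), with the block Ifit1 (-0.00753) and Apol10a (0.0136), with the 6 libraries alone Apol10a (0.00625), and with the B cell covariate Nfkb2 (-0.0488) and Apol10a (0.0265). With 1 mouse left out the LFC lay between -0.0350 and 0.150 for Pck2, -0.207 and 0.183 for Ifit1, -0.0585 and 0.0297 for Irf2, -0.138 and 0.133 for Nfkb2, -0.0586 and 0.0580 for Ripk1, -0.0147 and 0.1001 for Scnn1a, -0.0786 and 0.0460 for Mki67, -0.111 and 0.0578 for Tm4sf20 and -0.158 and 0.283 for Apol10a. The causes were not tested. At this depth, genes with under 10 counts carry the widest intervals.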

Other observations

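The families in these paragraphs were picked after their values were seen, so their counts are descriptions. Homeobox genes of the Hox clusters, which set position along the gut, gave 6 of 16 higher with ZnSO4 by edgeR, against 3.07% of all genes, and 5 by DESeq2, with a median LFC of 0.72. Smooth muscle markers summed to 2130 to 3670 CPM in the ZnSO4 mice and 2010 to 2100 CPM in the Dex mice, and fibroblast markers to 1030 to 1820 and 897 to 1060 CPM, with ZnSO4 replicate 3 the highest in both, and their part in the Hox values was not tested. Hoxb5 had 80.1, 99.8 and 108 normalised counts in the ZnSO4 mice and 51.3, 41.0 and 50.8 in the Dex mice (LFC 1.01 ± 0.21, adjusted p = 0.00562), and Hoxb8 (1.15, adjusted p = 0.0164) lost its call without Dex replicate 2 or ZnSO4 replicate 3 (LFC 0.97 to 1.34 and adjusted p up to 0.0648 with 1 mouse left out). Protocadherins, cell adhesion genes, gave 5 of 30 higher with ZnSO4, against 3.07% of all genes (median LFC 0.39), and of these Pcdh8 lost its call without Dex replicate 3 or ZnSO4 replicate 1 (LFC 1.93 to 2.88 and adjusted p up to 0.0654 with 1 mouse left out). Pcdh12, known from endothelium, had 85.8, 68.6 and 89.8 against 15.6, 22.7 and 20.5 (LFC 2.05 ± 0.23, adjusted p = 0.000119), and Pcdh17 (LFC 1.37 ± 0.22) and Pcdh18 (2.13 ± 0.35) were called as well. Pcdh12 stood beside Kdr and Egfl7 among genes of the vessel wall, whose markers summed to 133 to 144 CPM in the ZnSO4 mice and 78.6 to 85.7 CPM in the Dex mice, and the part of that difference in these genes was not tested.

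Alcohol dehydrogenases were the reverse: 4 of 5 were higher with Dex, against 4.24% of all genes, with a median LFC of -2.40. That median is the LFC of Adh4, which lost its call without Dex replicate 1 or 3 or ZnSO4 replicate 2 or 3 (LFC -3.48 to -1.94 and adjusted p up to 0.077 with 1 mouse left out). Adh1, which also oxidises retinol, had 239, 248 and 181 against 743, 796 and 843 normalised counts (LFC -1.83 ± 0.16, adjusted p = 1.66e-05), with the water + PBS mice at 189, 202 and 186, and Adh6b had 0, 0 and 0.926 against 14.5, 13.0 and 16.2. The Cyp2c cytochromes gave 3 of 7 higher with ZnSO4, against 3.07% of all genes (median LFC 0.94), Cyp2c55 among them, and Cyp2c66 lost its call without Dex replicate 1 or 3 (LFC 3.19 to 4.98 and adjusted p up to 0.0531 with 1 mouse left out). DESeq2 also called 2 of the 7 higher with Dex, Cyp2c29 and Cyp2c70. Hepatocyte markers summed to 385 CPM in Dex replicate 3 and to 6.51 and 10.4 CPM in the other Dex mice. Their part in these 2 calls was not tested. All 3 granzymes tested were higher with Dex (median LFC -2.29), of which Gzmk lost its call without Dex replicate 2 (LFC -1.55, adjusted p = 0.0563), and so were 3 of 4 genes of the Gml and Lypd group. Of 80 ribosomal protein genes (median LFC -0.11), 26 heat shock genes (-0.13) and 35 collagen genes (0.23) 0 were called by edgeR or DESeq2. At an unadjusted p under 0.05, 2 of the ribosomal protein genes were higher with Dex, 10 of the heat shock genes were higher with Dex and 1 with ZnSO4, and 5 of the collagen genes were higher with ZnSO4 and 2 with Dex.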
